A study of Mus musculus with 16 samples.

Results

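The carboxylesterase genes described here were the 9 genes Ces1d, Ces1e, Ces1f, Ces1g, Ces2a, Ces2b, Ces2c, Ces2e and Ces2g, out of 48440 genes listed for each segment of the small intestine. Each member was found by its symbol, and all 9 had 1 entry in the duodenal, jejunal and ileal tables and a mean normalized count above 10 in every segment. The other 11 carboxylesterase genes in the tables were near or at 0 in most libraries and are given after the members. The members were chosen with their levels and their difference between surgeries already known, so both are descriptions of these libraries and no p-value is offered in their support.

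The RNA came from Lgr5+ intestinal epithelial cells of female Lgr5eGFP mice, in which green fluorescent protein (EGFP) is made from the Lgr5 gene of intestinal stem cells. All mice ate a high-fat diet over 16 weeks, had vertical sleeve gastrectomy (VSG, removal of most of the stomach along its outer curve) or a sham operation, and was sampled 4 weeks later, after an overnight fast and 15 minutes after a liquid meal. From 6 cm each of duodenum, jejunum and ileum, GFP+ cells were collected after cells stained for CD45 or CD31, annexin V+ cells and dead cells had been removed. The 16 libraries carry the codes of 7 mice, and a code found in several segments was taken as the same mouse, which the labels do not state outright. Duodenum and jejunum were each covered by 4 VSG libraries (mice A12, B13, B14 and B8) and 2 sham libraries (B10 and B1), and the ileum had 2 VSG libraries (B8 and B9) and 2 sham libraries (B10 and B1). The age of each mouse is not given in the sources used here, and the reporter marks stem cells together with the progenitors that still hold EGFP.

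Carboxylesterases are serine hydrolases of the endoplasmic reticulum that split ester, thioester and amide bonds. In enterocytes and hepatocytes they hydrolyse drugs and other foreign esters that arrive with food, and several also act on acylglycerols, cholesteryl esters or retinyl esters. Rodents carry expanded Ces1 and Ces2 subfamilies as rows of neighbouring genes. In the small intestine, carboxylesterase enzymes are abundant in the absorptive cells of the villus.

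Genes of absorptive cells were present in every library beside those of stem cells. Lgr5 was measured in 14 of the 16 libraries and was listed at 0 in the jejunal and ileal libraries of sham mouse B10. Summed over a list of 18 enterocyte genes, the normalized count lay between 389514 and 2723280 in the 16 libraries, and summed over 12 stem cell genes between 8214 and 199651. The jejunal library of sham B10 stood apart. It had a total of 47.1 M (mega) normalized counts against 33.5 to 34.5 M in the other 5 jejunal libraries, the highest enterocyte sum (2723280) and a stem cell sum of 19358 against 57266 to 75098. The jejunal library of VSG A12 had 196951 normalized counts of Fabp6, the bile acid binding protein of the ileum, where the remaining jejunal libraries had 15.8 to 313 and the ileal ones 29162 to 208801; Fabp6 was chosen after its values were seen. Taking the commonest low value as 1 read, depth was about 10.9 to 63.6 M reads per library, and 1 read was worth 0.586 to 2.07 normalized counts, so that a value of 0 allows up to 1.76 to 6.21 normalized counts (3 reads, counting error only). A gene listed at 0 may also have been missed by the transcript quantification.

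The members lie in 2 groups on chromosome 8 (GRCm38, GENCODE M21). The 4 Ces1 genes run on the minus strand from chr8:93166068-93197838 (Ces1d) through chr8:93201218-93229619 (Ces1e) and chr8:93256236-93279747 (Ces1f) to chr8:93302369-93337308 (Ces1g). The 5 Ces2 genes run on the plus strand in the order Ces2a (chr8:104734003-104741634), Ces2b (chr8:104831572-104840093), Ces2c (chr8:104847068-104854483), Ces2e (chr8:104926260-104934672) and Ces2g (chr8:104961718-104969537). Ces2d-ps, an unprocessed pseudogene, lies between Ces2c and Ces2e at chr8:104867488-104873861. Aligned over their coding sequences, the Ces1 members shared 74.6% to 81.5% of bases with each other and the Ces2 members 81.6% to 92.1%, the closest pair being Ces2b and Ces2c. A Ces1 and a Ces2 member shared 62.3% to 65.4%.

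To show how alike the members are where the enzyme acts, 45 bases of each coding sequence are printed around the codon of the serine that attacks the ester bond. Capitals mark that codon, which was located by translating the annotated reading frame and finding the 1 place per protein where a serine stands in the glycine-rich motif of serine hydrolases.
Ces2e: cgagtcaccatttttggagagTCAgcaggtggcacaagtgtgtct
Ces2a: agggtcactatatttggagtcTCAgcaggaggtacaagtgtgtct
Ces2b: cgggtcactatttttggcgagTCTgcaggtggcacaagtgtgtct
Ces2c: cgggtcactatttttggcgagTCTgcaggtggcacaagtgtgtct
Ces2g: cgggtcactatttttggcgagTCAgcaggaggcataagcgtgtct
Ces1d: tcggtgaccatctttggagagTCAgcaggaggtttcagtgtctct
Ces1e: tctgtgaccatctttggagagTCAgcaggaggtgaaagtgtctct
Ces1f: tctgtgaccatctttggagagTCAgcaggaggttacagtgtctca
Ces1g: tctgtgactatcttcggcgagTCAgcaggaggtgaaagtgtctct
The serine codon was TCA in 7 members and TCT in Ces2b and Ces2c, whose windows were identical. Counted from 1 at the 5′ end of the window, Ces2a differed from Ces2e by A20T and G21C in the codon just before the serine. Over the 45 bases, 41 were the same as in Ces2e for Ces2b and Ces2c, 39 for Ces2g and 37 for Ces2a, and 32 to 35 for the Ces1 members.

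This likeness bears on how well reads can be assigned. Of the 1886 stretches of 85 bases (the read length) in the Ces2c transcript, 397 occurred unchanged in another carboxylesterase transcript, and 393 of these were shared with Ces2d-ps. Ces2b shared 15 stretches with Ces2c, Ces1e shared 11 with Ces1c, and no stretch was shared for the other 6 members. Ces2d-ps itself had at most 597 normalized counts in any library (duodenum of VSG A12, where Ces2c had 6778). The split of reads between Ces2c and Ces2d-ps is therefore uncertain by an amount these files do not give.

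Promoter sequence, from 250 bases before to 50 bases after the annotated start, was at hand in the RefSeq table (GRCm38.p6) for 6 of the 9 members. The promoters of the 4 abundant Ces2 genes are printed because these genes held most of the carboxylesterase signal and had one base run in common. All are on the plus strand: Ces2e at chr8:104926010-104926309, Ces2a at chr8:104733753-104734052, Ces2g at chr8:104961468-104961767 and Ces2c at chr8:104846818-104847117. Capitals mark TTCCTGC, the longest run found on the same strand in all 4, and CAAATTCCTGC, the longest found in 3 of them, which contains it.
Ces2e: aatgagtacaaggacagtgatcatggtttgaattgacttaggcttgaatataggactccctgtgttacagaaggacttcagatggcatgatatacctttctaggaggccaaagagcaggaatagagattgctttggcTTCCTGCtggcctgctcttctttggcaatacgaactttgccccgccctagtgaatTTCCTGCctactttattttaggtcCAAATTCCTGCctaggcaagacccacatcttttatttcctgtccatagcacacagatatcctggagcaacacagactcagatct
Ces2a: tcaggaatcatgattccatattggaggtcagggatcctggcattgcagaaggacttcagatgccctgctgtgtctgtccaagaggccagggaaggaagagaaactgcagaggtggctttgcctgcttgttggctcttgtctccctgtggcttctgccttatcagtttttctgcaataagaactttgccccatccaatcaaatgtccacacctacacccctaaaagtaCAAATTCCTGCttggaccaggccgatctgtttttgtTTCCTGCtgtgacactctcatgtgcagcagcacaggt
Ces2g: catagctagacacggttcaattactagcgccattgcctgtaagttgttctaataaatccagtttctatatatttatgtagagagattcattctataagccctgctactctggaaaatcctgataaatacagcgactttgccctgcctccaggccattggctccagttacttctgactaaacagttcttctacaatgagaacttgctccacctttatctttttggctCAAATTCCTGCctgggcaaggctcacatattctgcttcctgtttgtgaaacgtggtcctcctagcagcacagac
Ces2c: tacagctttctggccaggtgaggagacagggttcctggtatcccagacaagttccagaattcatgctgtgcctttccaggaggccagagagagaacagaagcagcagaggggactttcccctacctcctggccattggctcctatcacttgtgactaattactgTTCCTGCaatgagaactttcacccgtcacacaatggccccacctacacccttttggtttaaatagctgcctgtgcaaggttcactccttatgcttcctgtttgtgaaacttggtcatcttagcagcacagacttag
The 11-base run started 34 bases before the gene start in Ces2e, 23 in Ces2a and 24 in Ces2g. It occurred in 7 of 32851 promoters (0.0213%) on that strand, these 3 among them, and in 8 on either strand. Aligned to each other, these 3 promoters shared 61.1% to 69.4% of bases, so they are not unrelated sequences. TTCCTGC was far more common, with 1501 promoters (4.57%) on that strand and 2932 (8.93%) on either strand. The runs were picked from the sequences themselves, so their presence in these promoters is a description. Of the usual letters of intestinal and hepatic factors, searched on both strands, the GATA site AGATAA was in Ces1e, Ces1g and Ces2g (11.2% of all promoters), AGGTCA in Ces2a (16.3%), and TTTATNG and TATAAA in Ces1g (10.9% and 13.6%). No promoter of the 6 held GTTAAT, CAAAGTCCA or AGTTCA, which occurred in 7.10%, 0.475% and 13.99% of all promoters.

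Ces2e was the leading carboxylesterase of these cells in every library. Levels of different genes were compared as normalized counts per kilobase of merged exons, each given as its percent of the sum over the 9 members in the same library. On this scale Ces2e made up 48.6% ± 5.76 (SD, n = 6) of the duodenal sum, 57.1% ± 6.14 (n = 6) of the jejunal and 66.2% ± 3.69 (n = 4) of the ileal sum. Ces2c followed with 17.0% ± 2.73, 19.0% ± 3.18 and 18.7% ± 5.66, and Ces2a with 12.3% ± 3.85, 14.2% ± 4.04 and 10.7% ± 2.59. Ces2c and Ces2a hydrolyse acylglycerols as well as drug esters. In each segment the range of mean ± 1 SD of Ces2e lay clear of that of Ces2c, while those of Ces2c and Ces2a overlapped. By the same ranges Ces2a lay clear of the next gene, Ces1f, in the jejunum and ileum but overlapped with Ces2g in the duodenum.

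**Figure D1:**
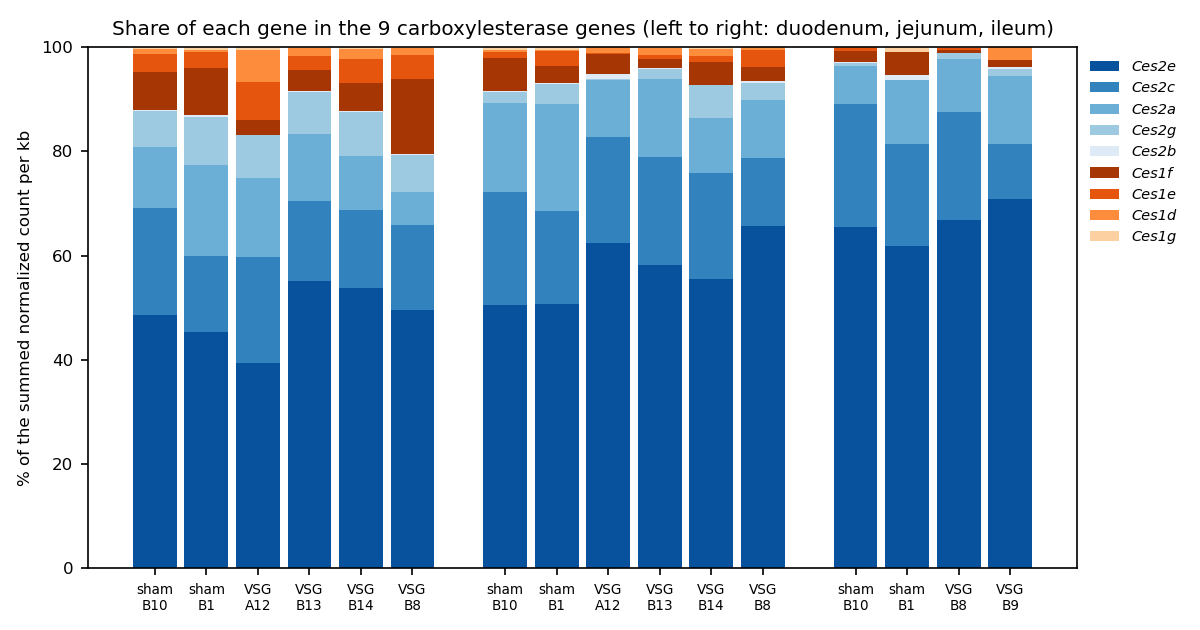
Each bar is 1 library and shows the percent of each gene in the summed normalized count per kilobase of the 9 members, with Ces2 genes in blue and Ces1 genes in orange. Ces2e takes 39.4% to 70.8% of every bar, and the orange part shrinks from 13.9% ± 4.22 in the duodenum to 3.33% ± 1.74 in the ileum.

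The lower part of the order changed along the intestine. Ces2g was 7.99% ± 0.891 of the sum in the duodenum, between 6.87% and 9.28% in each of the 6 libraries. It was 2.90% ± 2.08 in the jejunum and 0.752% ± 0.581 in the ileum. The 4 Ces1 genes together held 13.9% ± 4.22, 6.40% ± 1.53 and 3.33% ± 1.74 of the sum. Ces1f, an ester hydrolase, was the highest Ces1 gene per kilobase in all 3 segments (7.17% ± 4.13, 3.76% ± 1.61 and 2.19% ± 1.59). Ces1e, also known as egasyn, which holds beta-glucuronidase in the endoplasmic reticulum, went from 4.27% ± 1.73 to 1.54% ± 1.18 and 0.221% ± 0.264. Ces1d, a triacylglycerol hydrolase, had 2.04% ± 2.08, 0.806% ± 0.498 and 0.632% ± 1.18, while Ces1g and Ces2b were under 0.5% in the mean of every segment. From the fourth place in the jejunum and ileum, and from the second in the duodenum, the mean ± 1 SD ranges of neighbouring genes overlapped. These shares do not depend on how libraries were scaled against each other. With the length of the longest coding transcript in place of merged exons, Ces2e was again first in all 16 libraries, at 43.1%, 52.2% and 61.8% of the sum. In the duodenum Ces1f then had 10.7% and Ces2g 8.85%, so the order of the lower members and the Ces1 share depend on the length used.

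Levels of 1 gene between segments do depend on scaling, because the tables were normalized separately and their totals differ: 46.9 to 51.7 M normalized counts per library in the duodenum, 33.5 to 47.1 M for jejunal and 22.0 to 25.0 M for ileal libraries. The values are therefore given without a test, both as deposited and per M normalized counts of the library's own total. Ces2g had 6094 ± 2208 duodenal (n = 6), 2526 ± 1699 jejunal (n = 6) and 446 ± 366 ileal (n = 4) normalized counts. Per M it had 126 ± 44.0, 68.6 ± 45.2 and 19.7 ± 16.7. The duodenal value was above the jejunal value in 6 of 6 mice and above the ileal value in 3 of 3 mice on both scales. Ces1e had 1882 ± 558, 833 ± 627 and 80.7 ± 106 normalized counts, with the duodenum above the jejunum in 6 of 6 mice (5 of 6 per M) and above the ileum in 3 of 3. For Ces1f the values were 5185 ± 3184, 3690.4 ± 3940.1 and 1197 ± 832 normalized counts, with the duodenum above the jejunum in 4 of 6 mice (3 of 6 per M) and above the ileum in 3 of 3 on both scales.

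For Ces2a, Ces2c and Ces2e the order of duodenum and ileum or its size depended on the scale. Ces2e had 27933 ± 9347 duodenal, 38246 ± 18345 jejunal and 29405 ± 5689 ileal normalized counts, but 578 ± 177, 1024 ± 299 and 1285 ± 241 per M. The Ces2 sum was lower in the ileum than in the duodenum as deposited (log2 ratio of means -0.25), and higher with each library at the same total (0.83) or with size factors over all 16 libraries (1.02). The Ces1 sum was lower in the ileum on all 3 scales (log2 ratios -2.29, -1.22 and -1.01). Ces1e, Ces2g, Ces1f and Ces1d had a log2 ratio below 0 under each of them. These means mix 4 VSG and 2 sham libraries in the duodenum with 2 and 2 in the ileum. From the sham libraries alone, as deposited, the log2 ratio was -0.71 for the Ces2 sum, -2.38 for the Ces1 sum, -5.35 for Ces2g and -4.13 for Ces1d (against -3.77 and -1.61 over all libraries). From medians over libraries the Ces2 sum had -0.030.

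**Figure D2:**
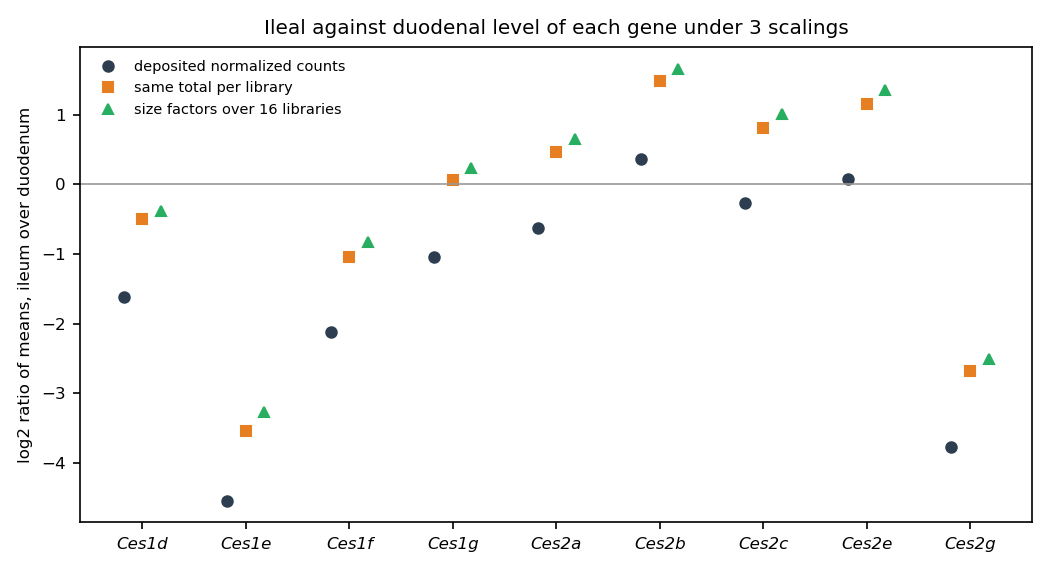
The y axis gives the log2 ratio of the mean ileal (n = 4) to the mean duodenal (n = 6) level of each gene, and the 3 marks per gene stand for the deposited normalized counts, the same total per library and size factors over 16 libraries. Ces1d, Ces1e, Ces1f and Ces2g are below 0 under all 3, while Ces1g, Ces2a and Ces2c change side.

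The jejunal library of VSG A12, which had the ileal amount of Fabp6, also had the lowest jejunal values of Ces2g (95.0 normalized counts against 1309 to 4148 in the other 5) and Ces1e (86.5 against 366 to 1649.8). Both values lay in the range of the ileal libraries (0 to 896 for Ces2g and 0 to 229 for Ces1e). Whether that sample was taken further along the intestine was not tested.

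In the duodenum all 5 Ces2 genes were lower in every VSG library than in both sham libraries, beside 8.01% of all genes tested. Ces2e had 15443, 23271, 30161 and 22367 normalized counts in VSG mice A12, B13, B14 and B8, and 40751 and 35603 in sham mice B10 and B1. Ces2c had 6778, 5546, 7133 and 6253 after VSG and 14739.8 and 9711 after sham surgery. Ces2a had 5151, 4703, 5043 and 2528 against 8567 and 12028. In these 3 genes the groups did not overlap, and the sham mean was 1.67, 1.90 and 2.36 times the VSG mean. The fitted log2 differences, VSG minus sham, were -0.78 (SE 0.28) for Ces2e, -0.90 (0.24) for Ces2c and -1.28 (0.33) for Ces2a. Ces2g had 4291, 4482, 6239 and 4252 against 7642 and 9659, a log2 difference of -0.85 (SE 0.25). Ces2b was the lowest of the subfamily, with 0, 102, 164 and 92.6 against 286 and 322. Its log2 difference of -3.10 (SE 2.05) rests on the library of A12, listed at 0, and was -1.38 without it. The Ces2 sum was 31663 to 48739.5 after VSG and 67323 to 71986 after sham surgery, 1.81-fold higher in the sham mean. In sorted bulk cells, fewer cells of a type and less RNA per cell cannot be told apart.

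The Ces1 genes of the duodenum were less uniform. Ces1g, which limits triacylglycerol build-up in the liver, had 187, 68.9, 203 and 95.4 normalized counts after VSG and 328 and 416 after sham surgery, with no overlap. Ces1f had 1389.5, 2145, 3576 and 7868 against 7497 and 8636, so that VSG B8 lay between the sham mice. Ces1e had 2327, 865, 2154 and 1684 against 2338 and 1921, which overlapped. Ces1d was the exception in direction, with 2115, 603, 895 and 546 against 653 and 273 and a log2 difference of 1.07 (SE 0.64). Its groups overlapped too, and A12 alone was far above the rest.

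Over the 9 members of the duodenum, 8 had a log2 difference below 0 and the median was -0.90, beside 49.3% below 0 and a median of 0.0086 over all 16867 genes tested. No member was called (limma with a variance trend on log2(normalized count + 1), Benjamini-Hochberg adjusted p under 0.2, p under 0.05, absolute log2 difference above 0.5 and mean above 50), beside 0.0237% of all genes, and the lowest adjusted p of a member was 0.485. Unadjusted, 5 members had a p under 0.05, as had 6.27% of all genes. The 4 VSG values were all under both sham values in 6 members, beside 8.01% of all genes, and all over them in 0 members, beside 6.44%. Since the members were chosen with this comparison in view, nothing is read from these counts. Without sham B1 (sham replicate 2) 1 member, Ces2c, was called (log2 difference -1.2, SE 0.20, limma adjusted p = 0.192), among 47 of 16808 genes called in that fit.

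**Figure D3:**
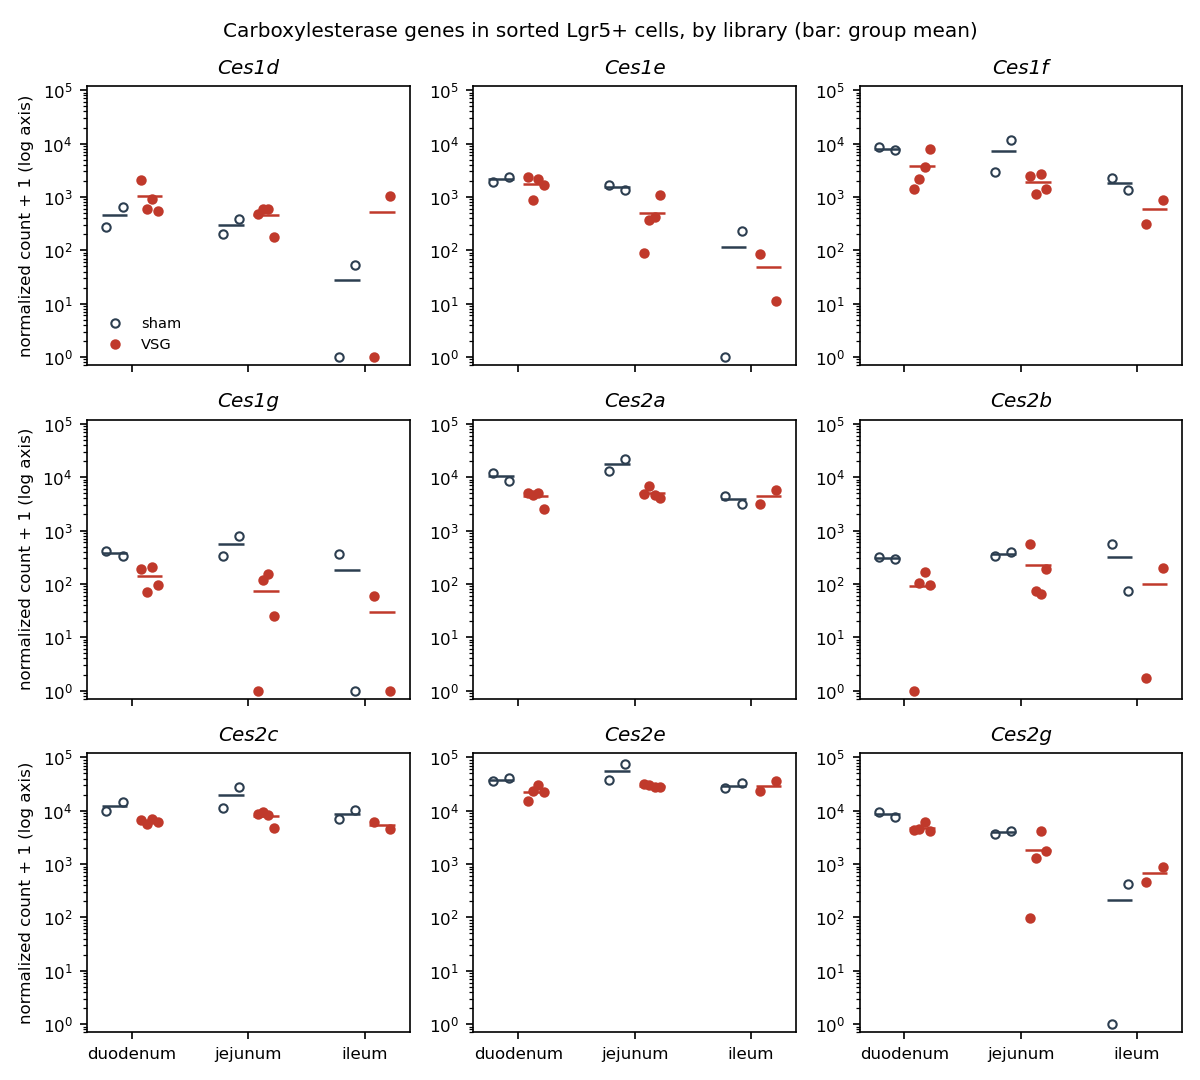
Each panel is 1 gene and each point 1 library, as normalized count + 1 on a log axis, with sham as open and VSG as filled points and bars at the group means. For duodenum and jejunum the filled points of Ces2a, Ces2c and Ces2e all lie below the open points. Ileal Ces2a and Ces2e overlap. Points at 1 are genes listed at 0.

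In the jejunum the same 3 abundant Ces2 genes were again lower in every VSG library than in both sham libraries, beside 6.21% of all genes. Ces2a had 4822, 6941, 4546 and 4124 normalized counts after VSG (A12, B13, B14, B8) and 22138 and 13220.2 after sham surgery (B10, B1). Ces2c had 8732, 9357, 8454 and 4706 against 27530.0 and 11103. Ces2e had 31321, 30804, 27302 and 27726 against 74964 and 37356. Sham B10 was the highest library for each of these genes, and for Ces2c and Ces2e sham B1 lay much closer to the VSG libraries. For Ces2a sham B1 (13220.2) was still well above the highest VSG library (6941). The log2 differences were -1.77 (SE 0.35) for Ces2a, -1.21 (0.43) for Ces2c and -0.86 (0.38) for Ces2e. Without sham B10 those of Ces2c and Ces2e were -0.56 and -0.35. Ces2g had 95.0, 1309, 4095 and 1792 against 4148 and 3717, so that B14 lay between the sham mice. Its log2 difference of -2.0 (SE 1.17) was -0.88 without A12. Ces2b had 559.7, 72.6, 62.2 and 192 against 387 and 329 and overlapped.

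Of the Ces1 genes of the jejunum, 3 of 4 had every VSG library below both sham libraries, beside 6.21% of all genes tested. Ces1e had 86.5, 366, 425 and 1101 normalized counts after VSG and 1368 and 1649.8 after sham surgery. Ces1f had 2419, 1124, 2671 and 1418 against 11602 and 2909, with a log2 difference of -1.70 (SE 0.57) that was -0.70 without sham B10. Ces1g had 0, 119, 153 and 24.0 against 777 and 328. The size of its log2 difference, -4.28 (SE 2.30), depended on the value of 0 in A12 and was -2.71 without that library. As in the duodenum, Ces1d went the other way in its mean, with 484, 586, 599.5 and 178 against 387 and 202, and overlapped.

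Over the jejunal members, 8 of 9 had a log2 difference below 0 with a median of -1.70, beside 45.0% below 0 and a median of 0.11 over 15857 genes. By the same limma rule 0 of 9 were called, beside 0.0126% of all genes, with a lowest adjusted p of 0.651. Unadjusted, 5 members had a p under 0.05, as had 6.04% of all genes. The 4 VSG values were all under both sham values in 6 members, beside 6.21% of all genes, and all over them in none, beside 6.59%. Leaving out sham B1, so that the only sham library was B10 and its spread was taken from the VSG libraries, called 4 members (Ces1f, Ces2a, Ces2c and Ces2e, limma adjusted p from 0.0358 to 0.104) together with 2710 genes in all. Leaving out sham B10 called none of the members, and their median was -1.14.

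**Figure D4:**
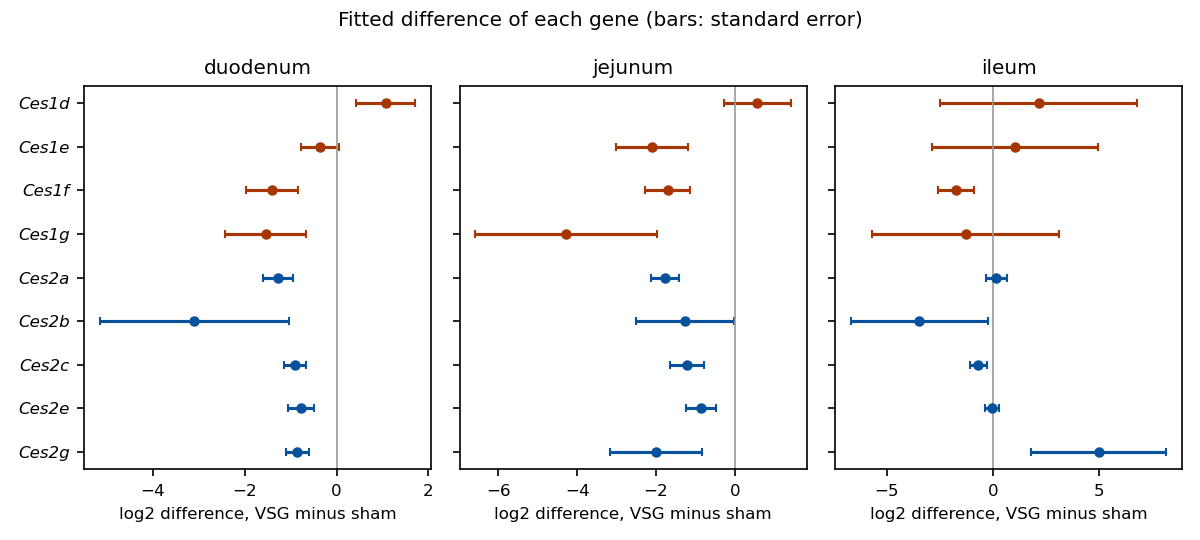
Points are fitted log2 differences, VSG minus sham, of each gene in the 3 segments with standard errors as bars, Ces1 genes in orange and Ces2 genes in blue; the x axes differ between panels. Of the 9 points, 8 are below 0 in each of duodenum and jejunum and 5 for the ileum, and the long bars belong to genes listed at or close to 0 in a library.

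In the ileum, with 2 libraries a group, the abundant Ces2 genes did not move together. Ces2e had 23117 and 35362 normalized counts after VSG (B8, B9) and 32888 and 26252 after sham surgery (B10, B1), a log2 difference of -0.039 (SE 0.33). Ces2a had 3079.9 and 5719 against 3171 and 4492 (log2 difference 0.15, SE 0.50). Both genes overlapped fully between the groups. Ces2c had 6145 and 4495 against 10116 and 7088, and Ces1f had 306 and 873 against 1335 and 2273. These were the 2 members in which both VSG libraries lay below both sham libraries, beside 11.6% of all genes. Ces2g was the 1 member with both VSG libraries above, with 466 and 896 against 424 and 0, beside 17.0% of all genes. Its log2 difference of 4.97 (SE 3.19) was set by the 0 in sham B1 and was 0.61 without that library. Ces1d, Ces1e and Ces1g were each listed at 0 in 1 or 2 of the 4 libraries and Ces2b was 0.708 in VSG B8, and all 4 overlapped. Of the 9 members, 5 had a log2 difference below 0, beside 43.0% of all genes, with a median of -0.039 beside 0.24. By the limma rule 0 of 9 members and 0.0% of all 13853 genes were called, with a lowest adjusted p of 0.736 among the members. No member and 3.28% of all genes had an unadjusted p under 0.05.

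The within-mouse difference between jejunum and duodenum gave no call that the surgery acted differently in the 2 segments. In the 6 mice with both segments, the VSG minus sham difference in the jejunum less that in the duodenum was below 0 in 8 of 9 members (45.4% of 14718 genes), with a median of -0.50. It was -1.73 (SE 1.28) for Ces1e, -0.50 (0.54) for Ces2a, -0.31 (0.49) for Ces2c and -0.08 (0.50) for Ces2e. Without sham B10 it was 0.12 for Ces2a, 0.046 for Ces2c and 0.33 for Ces2e, and 4 of 9 members were below 0. The value of Ces1e leans on VSG A12, the mouse whose jejunal library had the ileal amount of Fabp6. Ces1e had 86.5 normalized counts in that library, against 366 to 1101 in the jejunum of the other VSG mice, and 2327 in the duodenum of A12. No member was called by limma (0.0% of all genes), the lowest adjusted p was 0.985, and the median changed sign, to 0.046, without sham B10. The ileum, sampled in only 3 of these mice, was not included.

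Most genes of the enterocyte list were lower after VSG in the duodenum and jejunum, as the Ces2 genes were, but less evenly in the jejunum. Of its 18 genes, all had a duodenal log2 difference below 0, against 17 of 18 for the jejunum and 11 of 18 for the ileum, with medians of -0.89, -1.04 and -0.14, and none was called. Its 3 most abundant genes were Anpep, a brush border peptidase, Apoa1, an apolipoprotein, and Sis, a brush border disaccharidase. Their log2 differences were -0.69, -0.84 and -0.58 in the duodenum and -0.82, -0.80 and -0.88 in the jejunum. The summed list lay between 389514 and 826862 in the duodenal VSG libraries against 924239 and 1393320 after sham surgery, with no overlap. In the jejunum it lay between 683067 and 1190820 against 1029010 and 2723280 and overlapped. Only sham B10 (2723280) lay above every VSG library there. As a percent of this list in the same library, the Ces2 sum of the duodenum was 5.20% to 8.13% after VSG and 5.17% to 7.28% after sham surgery. For the jejunum it was 4.07% to 6.51% and 4.74% to 6.39%, and for the ileum 5.12% to 6.31% and 4.29% to 4.59%. So, set beside the enterocyte list, the Ces2 sum overlapped between the surgeries in the duodenum and jejunum. In the ileum, with 2 libraries a group, it did not overlap, and both VSG libraries lay above both sham libraries. As normalized counts, 17.0% of all ileal genes tested lay so, and nothing is read from this. The part of villus cells in these differences was not tested. This ratio was chosen after the values were seen.

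**Figure D5:**
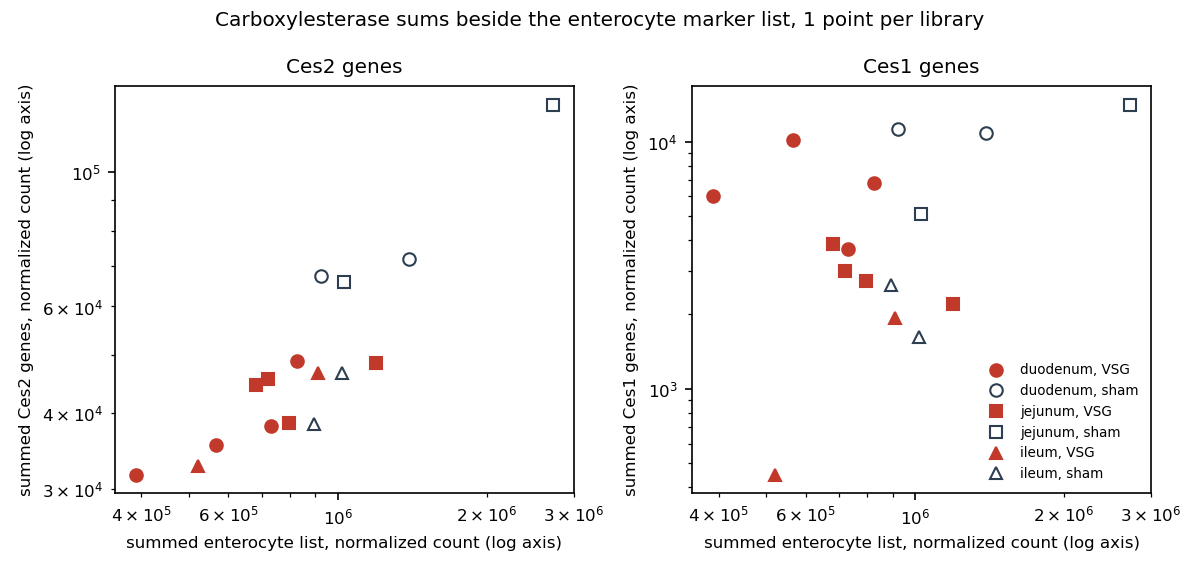
Each point is 1 library, with the summed normalized count of the enterocyte list on the x axis and that of the Ces2 genes (left) or Ces1 genes (right) on the y axis, both on log axes. The Ces2 sum goes up with the enterocyte sum from 31663 beside 389514 (VSG A12, duodenum) to 129167 beside 2723280 (sham B10, jejunum), while the ileal points of the Ces1 genes lie below the duodenal ones.

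The Ces1 sum kept less even step with that list. As a percent of the enterocyte list it was 0.502% to 1.80% in the duodenum after VSG and 0.776% to 1.22% after sham surgery. For the jejunum it was 0.184% to 0.563% and 0.495% to 0.519%, and for the ileum 0.0861% to 0.213% and 0.159% to 0.295%. These percents overlapped between the surgeries in every segment. As normalized counts, the sham mean of the Ces1 sum was 1.65-fold (duodenum), 3.27-fold (jejunum) and 1.78-fold (ileum) the VSG mean. The jejunal sum was 14135 in sham B10 but 5089 in sham B1, against 2195 to 3848 after VSG. The sums overlapped in the ileum only, though duodenal VSG B8 (10194) came close to sham B10 (10817). Of all single genes tested, 8.01% (duodenum) and 6.21% (jejunum) had every VSG library below both sham libraries.

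No gene of the stem cell list was called either. Of its 12 genes, 9 (duodenum), 11 (jejunum) and 9 of 11 tested (ileum) had a log2 difference above 0. The 3 most abundant were Olfm4 (log2 differences 0.12, 0.86 and 2.14 along the segments), Slc12a2 (0.13, 1.07 and 3.01) and Prom1 (1.2, 1.60 and 0.23), and Lgr5 itself had 1.30 (SE 0.64), 3.92 (2.33) and 5.43 (3.03), the last 2 set by the zeros of sham B10. In the jejunum even the direction of Lgr5 rests on that 0, since sham B1 had 2053 against 426 to 1661 after VSG. Its sum was 101961 to 199651 after VSG and 122853 to 129748 after sham surgery in the duodenum, and 57266 to 75098 against 19358 to 68888 in the jejunum. Of the proliferation list (led by Mki67, Top2a and Pcna), 5, 9 and 7 of 10 genes were above 0. Of the enteroendocrine list (Gip, Chgb and Chga) it was 11 of 12, 8 of 12 and 8 of 11. Over all genes tested, 49.3% (duodenum), 45.0% (jejunum) and 43.0% (ileum) were below 0. The duodenal count of the proliferation list was near that share, and no shift of a cell type is read from these counts.

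No goblet or Paneth cell gene was called, and over all genes tested 49.3% (duodenum), 45.0% (jejunum) and 43.0% (ileum) had a log2 difference below 0. Goblet cell genes, led by Fcgbp, Tff3 and Clca1, had a log2 difference above 0 in 8, 8 and 7 of 8, and Paneth cell genes, led by Defa24, Defa17 and Lyz1, in 6, 7 and 7 of 7. Their jejunal sums were lowest in sham B10 (106626 and 40822), while sham B1 (232694 and 259740) lay within the VSG libraries (203826 to 391382 and 112738 to 295417). The duodenal Paneth sums overlapped too, at 179183 to 338660 after VSG and 164235 to 288506 after sham surgery. Hepatocyte genes, which would mark another tissue rich in carboxylesterases, summed to 48.6 to 2642 normalized counts per library, with Cyp2e1, Ttr and Tat leading. Pancreatic acinar genes (Ctrb1, Pnlip and Cela1 leading) summed to 210 to 10864 in the duodenal VSG libraries and to at most 448 in any other library. The adipocyte list summed to 82.9 to 5436, most of it Cidec, with Fabp4 and Plin1 behind it. The immune list summed to 1851 to 68516, nearly all Cd74, which epithelial cells also make, with Ptprc at most 1534 and Lyz2 at most 475. The stroma and endothelium list (Vim, Col3a1 and Col1a2 leading) summed to 133 to 2668. How far these cells entered into the carboxylesterase values was not tested.

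The other 11 carboxylesterase genes added little. Ces1a, Ces4a and Ces5a were listed at 0 in all 16 libraries. Ces2d-ps had 0 to 597 duodenal normalized counts. Its jejunal values were 424 and 87.4 in sham B10 and B1 against at most 4.06 after VSG. Ces3a reached 230.1 in the duodenum and 443 in the jejunum of sham B10 and at most 33.2 in any other library. Ces2f, Ces2h, Ces1b and Ces1c had at most 68.3, 61.9, 170.2 and 84.6 in any library. None was called among the 4 (duodenum), 5 (jejunum) and 1 (ileum) of the 11 with a mean high enough to be tested.

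Other enzymes that act on the same lipids were mixed. Of the neutral lipid hydrolases tested, 8 of 16 (duodenum), 6 of 13 (jejunum) and 5 of 14 (ileum) had a log2 difference below 0, and none was called. Over all genes tested, 49.3%, 45.0% and 43.0% were below 0, the share to set beside the counts given here. Among the 3 most abundant, Aadac, a microsomal esterase related to the lipases, was lower in the duodenum after VSG, with 3929 to 6294 normalized counts against 9799 and 10099 and no overlap (log2 difference -0.91, SE 0.25, limma adjusted p = 0.485). In the jejunum Aadac had 574 to 4342 against 5117 and 8788, and in the ileum 380 to 1998 against 0 and 151. Pnpla2, the lipase that opens cytosolic triacylglycerol breakdown, had log2 differences of 0.25, 0.08 and -0.38 in the 3 segments, and Ddhd2, a phospholipase, -0.61, 0.03 and -1.03. Of 10 genes of acylglycerol and cholesteryl ester synthesis, 8, 7 and 5 were below 0 and none was called. Dgat1, which makes triacylglycerol, had 16992 to 28079 against 29336 and 33231 in the duodenum (log2 difference -0.53, SE 0.24). Mogat2 and Agpat2 had -0.78 and -0.31 there, -0.18 and 0.07 in the jejunum, and 0.34 and -0.66 in the ileum. Of 19 receptors and transcription factors known to act on carboxylesterase or enterocyte genes, 13, 11 and 4 (of 18 tested) were below 0 and none was called. The most abundant were Hnf4a (log2 differences 0.34, 0.37 and -0.13), Nfe2l2 (-0.27, -0.60 and 1.07) and Cdx2 (-0.11, 0.0045 and 0.032).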

How the data were processed

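Sorted GFP+ cells of 7 mice gave 16 polyA RNA libraries, 1 per segment and mouse. Per the labels and methods, the authors aligned 85-base reads to mm10 with STAR 2.5.3a, quantified with Salmon 0.6.0, excluded libraries with low mapping, and deposited signal values per gene, made by DESeq2 normalization of counts inside a segment. Their tables of fold changes and p-values were not used. Totals were 22.0 to 51.7 M normalized counts.

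Of 48440 identifiers, 48058 matched GENCODE M21, and 113 names were shared by genes. Each segment was fitted with limma 3.58.1 (R 4.3.3) on log2(normalized count + 1), keeping genes whose mean exceeded 10. The size of a difference depends on the pseudocount for low genes, most where a library is listed at 0. The steps were tested on simulated data. P-values measure the spread between mice. Within-mouse differences took a mouse code shared by segments as 1 mouse, which the labels do not state outright (deviations correlated by -0.04 to 0.04 over 14718 genes). Members and lists were chosen with earlier results of these data known. Named genes are the members, other carboxylesterases with a mean above 10 in a segment, the 3 most abundant genes of each other list, Lgr5, and the 5 genes most alike per subfamily. Alternatives were other pseudocounts, filters, scalings, no trend, a replicate block and leaving out libraries. Values per M, leaving out sham B10 beside the counts, ratios to the enterocyte list and correlations without some libraries were added after the data were seen. Figures used Python 3.11.15 and matplotlib 3.10.9.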

Additional observations from a re-analysis of the deposited data

Results flagged for a closer look

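In 22 groups of 4 libraries (a member in the duodenum or jejunum after VSG, with sums), 2 had a library far from the other 3; about 1 in 20 groups is picked out so by chance. Ces2a in the duodenum after VSG was lowest in mouse B8, at 2528 normalized counts against 4703 to 5151. Ces2g in the duodenum after VSG was highest in mouse B14, at 6239 against 4252 to 4482.

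Ces2g also had opposite directions in 2 segments. All 4 duodenal VSG libraries lay below both sham libraries (log2 difference -0.85), and both ileal VSG libraries lay above both sham libraries (4.97), where sham B1 was listed at 0 and the ileal value was 0.61 without it. This difference between segments was not tested.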

How the results depend on the processing

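With 2 sham libraries in each segment, 1 library could decide a call, and values of low members rested on single zeros. The number of members called was 0 to 1 in the duodenum (1 without sham replicate 2, B1), 0 to 4 in the jejunum (4 without sham B1), and 0 in the ileum and in the jejunal less duodenal difference when each library or mouse was left out; it was 0 under all other settings. With 1 library left in an arm, it was assumed to vary like the other group. Leaving out libraries gave medians of -1.03 to -0.83 in the duodenum, -1.97 to -1.14 in the jejunum, -0.73 to -0.041 in the ileum and -1.11 to 0.046 for the difference between segments, the last without sham replicate 1, B10; the cause was not tested. The ileal median was -0.64 with quantile normalization and 0.070 with the same total per library, where the median of all genes went from 0.24 to 0.038 and 0.35; in the jejunum the same total moved it from 0.11 to 0.34 and the members' median to -1.47. The ileal minus duodenal log2 ratio of the Ces1 sum was -1.22 with the same total and -1.01 with size factors over 16 libraries, and that of the Ces2 sum 0.83 and 1.02, against -0.25 as deposited, since the tables differ in total. With the replicate block in the duodenum 0 members were called and the median was -1.01; same-numbered VSG and sham libraries are different mice, their deviations correlated by -0.05 and -0.03, and the block moved the count of genes called from 4 to 0. Without the mouse pairing, the difference between segments again had 0 members called and a median of -0.50. No duodenal or jejunal member changed sign under any setting. In the ileum 5 members did so in 14 fits. For the difference between segments 5 members did so in 7 fits, all with a mouse left out. Over all genes, 4 called in the duodenum became 0 to 259 (259 without sham B10), 2 in the jejunum 1 to 2710 (2710 without sham B1), 0 in the ileum 0 to 631 (625 and 631 without VSG B8 and B9), and 0 for the difference between segments 0 to 812 (812 without sham B1); without the variance trend they were 43, 61, 463 and 4.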

Other observations

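Across the 16 libraries, with each gene's log2(normalized count + 1) centred on its segment mean, the members did not all vary together. Centring left the difference between surgeries, known when the members were chosen, in these values. Its part in the correlations was not tested. Ces2a, Ces2c and Ces2e were correlated by 0.69 to 0.77 with each other (Pearson's r over 16 libraries, across which mice and depth are shared). The same r was 0.10 to 0.27 between Ces2g and those 3, and 0.80 between Ces2g and Ces1e. The last value rests on 2 libraries, the jejunum of VSG A12, where both genes were at their jejunal lowest, and the ileum of sham B1, where both were listed at 0. Without them (n = 14) it was -0.086, and Ces2g had 0.41 to 0.66 with Ces2a, Ces2c and Ces2e, which had 0.69 to 0.78 with each other. Ces1d had r between -0.61 and 0.45 with the other 8 members. Its lowest value, with Ces1g, rests on the ileum, where each gene was listed at 0 in 2 of 4 libraries, and was -0.098 over the 12 other libraries. These subsets of libraries were chosen after the data were seen.

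Of 10703 other genes with a mean above 50 in every segment, those most like the mean of the Ces2 members over the 16 libraries were Mfsd7b (r = 0.92), Por (0.90), Naprt (0.90), Acbd4 (0.90) and Gsta1 (0.89). Por makes the reductase that feeds electrons to cytochrome P450 enzymes, and Gsta1 makes a glutathione transferase. Most like the Ces1 members were Fabp1 (0.90), Gstm3 (0.90), Sec14l2 (0.90), Cdr2 (0.88) and Gpx4 (0.87), of which Fabp1, the fatty acid binding protein of liver and proximal intestine, is also in the enterocyte list. Both means gave each member the same weight, so low members listed at 0 in some libraries (Ces2b, Ces2g, Ces1d, Ces1e and Ces1g) counted in full. These r were not taken without those libraries, and the difference between surgeries was left in here too.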
